A study of Mus musculus with 35 samples.

Results

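Suprarenal aortas of mice infused with angiotensin II (Ang II) were set against aortas of mice infused with saline, and the difference was averaged over 7, 14 and 28 days with each time at equal weight. The comparison took every array titled as an Ang II aorta, 15 in all, with 4 at 7 days, 5 at 14 days and 6 at 28 days. Against them stood every array titled as a saline aorta, 17 in all, with 6 at 7 days, 6 at 14 days and 5 at 28 days. These are 32 of the 35 arrays of the series, and the 3 arrays of Ang II aortas that had dissected by 7 days were left out.

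All animals, the saline ones included, were male ApoE-/- mice, which lack apolipoprotein E and have high blood cholesterol. Osmotic minipumps placed under the skin at 12 to 14 weeks of age delivered Ang II at 1000 ng/kg/min, or saline vehicle. One aorta was hybridised per array, labelled with Cy5 against a Cy3-labelled universal mouse reference RNA that was the same on every array, and no array swapped the dyes. The labels call the Ang II tissue a non-dissected aneurysm at 7 days and an aneurysm at 14 and 28 days, so the Ang II aortas at 7 days are those that had not dissected by then. Values are log2 ratios of aorta to reference for 1 gene at a time, and a change is the difference of these ratios, Ang II minus saline, in log2 units.

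Angiotensin II is the effector peptide of the renin-angiotensin system and acts on the vessel wall mainly through the AT1 receptor. It raises blood pressure and makes smooth muscle contract, and it also stimulates matrix synthesis, growth and the entry of leukocytes. In ApoE-deficient mice its long infusion is a widely used way to produce aneurysms of the suprarenal aorta, in which the wall thickens, its elastic fibres break and macrophages and fibroblasts gather in the adventitia.

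The 10 markers fixed as a check of the tissue were well above background on all 15 Ang II and all 17 saline arrays. They were Acta2, Myh11, Tagln and Cnn1 of smooth muscle, Pecam1, Cdh5 and Vwf of endothelium, and Pdgfra, Dpt and Dcn of adventitial fibroblasts. In the Cy5 channel, between 45 and 84.81 percent of gene spots stood clearly over background on an array (median 57.87 percent), and Ang II replicate 4 at 14 days alone stood at the top of that range. Each scan day held 16 arrays, and scan day 2 held 1 of the 4 Ang II arrays of 7 days. With scan day in the fit, 5 genes (0.0268%) differed between the scan days, the clock gene Per3 among them. Each array holds 1 aorta. The values come from whole tissue, so fewer cells of a type and less RNA per cell cannot be told apart.

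The mean difference over the 3 times passed an adjusted p of 0.05 for 5584 of 18653 genes, or 29.9% of those tested. Ang II aortas were higher for 2980 of them (16% of genes tested) and lower for 2604 (14%). At least a 2-fold change was reached by 365 of the higher and 113 of the lower genes, and at least a 4-fold change by 31 higher genes and 1 lower gene. The median size of a called change was 0.45, against a median change of -0.01 over all genes. With scan day as a block 5655 genes were called, within scan day 1 alone 3986 and within scan day 2 alone 1729. Of 148 called genes named here 126 were called within scan day 1 and 102 within scan day 2. On scan day 2 alone 67% of the called genes were higher, against 53.4% in all arrays together. Of the 5568 called genes with a value on both scan days, 5560 had the same direction on each. The calls come from these same arrays, which favours that agreement. The share over all genes was not counted. With slide as a block 5967 genes were called.

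The 3 times contributed unequally. At 7 days alone 5165 genes were called (27.7%), at 14 days 394 (2.11%) and at 28 days 209 (1.12%). Ang II arrays were fewest at 7 days. Among genes called higher on average the median change was 0.73 at 7 days, 0.32 at 14 days and 0.35 at 28 days. Among genes called lower it was -0.60 at 7 days, -0.37 at 14 days and -0.30 at 28 days. The largest of the 3 changes was the one at 7 days for 4121 called genes, at 14 days for 847 and at 28 days for 616. The mean of 14 and 28 days alone called 1872 genes, 1809 of them among the 5584 and all 1809 in the same direction.

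Of the 5584 called genes 5198, or 93.1%, had the same sign at all 3 times, against 49.8% of all genes tested, a share that the call on the mean itself favours. A test of whether the effect differed among the 3 times called 105 genes (0.563%), of which 92 were also called on average. In that test 2978 of the 18653 genes had an unadjusted p under 0.05, more than the share of 0.05 that chance alone would give. A gene outside the 105 may still differ among times. The count of 105 moved with single arrays, to 15 without Ang II replicate 2 of 7 days and 308 without saline replicate 2 of 28 days. With slide as a block it was 3. Only 46 genes were called at each of the 3 times on its own, 39 of them higher with Ang II. A further 1653 genes (8.86%) were called on average and at no single time, 741 higher and 912 lower.

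For 8 genes (0.0429%) all 15 Ang II arrays lay above all 17 saline arrays, and for 0 genes (0%) did all 15 lie below. The 8 were Col8a1, Fgf18, Trem2, Piezo2, Ccl8, Pappa, Myo7a and Sned1, the last 2 of which were picked out after their values were seen. Their sizes ran from 3.59 for Col8a1 to 1.08 for Myo7a, a myosin gene, and 1.0 for Sned1, which encodes a matrix protein.

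The largest mean rise was that of Col8a1, which encodes a short-chain collagen of the network-forming type found under endothelium and around migrating smooth muscle. Its log2 ratio had a lowest value of -0.05, a median of 1.78 and a highest value of 3.96 in the 15 Ang II aortas, against -3.30, -1.76 and -0.87 in the 17 saline aortas. The groups did not overlap. The mean difference was 3.59 (standard error 0.282, adjusted p = 4.77e-10), a 12.1-fold difference, made up of 4.86 at 7 days, 3.01 at 14 days and 2.90 at 28 days. Its partner chain Col8a2 was higher by 2.51.

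Cthrc1, which encodes a secreted glycoprotein made by activated fibroblasts of injured arteries, ran from 0.72 through a median of 3.42 to 5.04 in Ang II aortas and from -0.48 through -0.14 to 0.87 in saline aortas. In 14 of 15 Ang II aortas it lay above every saline aorta, and its saline probe was well above background on 12 of 17 arrays. The mean difference was 3.47 (0.228, adjusted p = 2.37e-11). Its effect differed among times (adjusted p = 0.012), with 5.10 at 7 days, 3.44 at 14 days and 1.87 at 28 days.

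Timp1, the gene of a secreted inhibitor of metalloproteinases, ran from -0.22 through 1.25 to 3.61 in Ang II aortas and from -2.88 through -1.49 to 0.67 in saline aortas. Its mean difference was 3.24 (0.295, adjusted p = 7.7e-09), and 13 of 15 Ang II aortas exceeded all saline aortas. Col1a1, which encodes the major chain of type I collagen, ran from 0.71 through 3.02 to 4.93 with Ang II and from -1.61 through 0.19 to 2.23 with saline. It was higher by 3.07 (0.356, adjusted p = 4.62e-07). Both groups spread widely for Col1a1, and 12 of 15 Ang II aortas lay above the saline range.

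Fgf18, the gene of a growth factor for chondrocytes and lung mesenchyme, ran from 2.15 through 3.67 to 5.05 in Ang II aortas and from -0.17 through 0.66 to 1.18 in saline aortas, and was higher by 3.48, 2.72 and 2.67 at 7, 14 and 28 days. The mean difference was 2.96 (0.212, adjusted p = 1.19e-10).

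Piezo2, which encodes a stretch-gated cation channel best known from touch neurons, had the smallest p of all genes. It ran from 1.59 through 2.82 to 4.36 in Ang II aortas and from -0.23 through 0.54 to 1.13 in saline aortas. The mean difference was 2.70 (0.154, adjusted p = 1.17e-12), and its size differed among times (adjusted p = 0.0114), with 3.94 at 7 days and 1.79 at 28 days. Pappa, the gene of a protease that frees insulin-like growth factor from a binding protein, changed less but as cleanly. It ran from 0.45 through 1.18 to 2.35 in Ang II aortas and from -0.04 through 0.11 to 0.35 in saline aortas, a mean difference of 1.26 (0.0972, adjusted p = 4.16e-10).

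**Figure D1:**
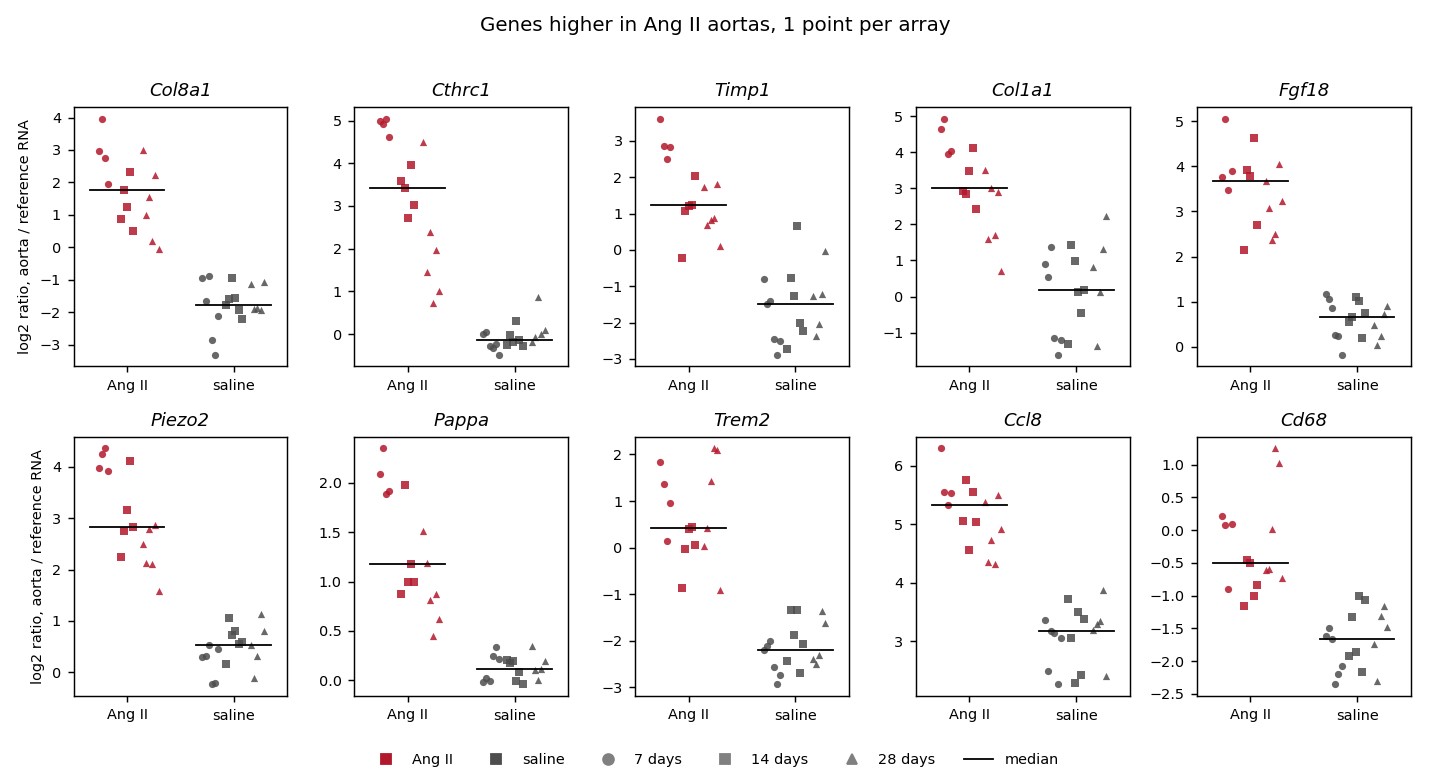
Log2 ratio of aorta to reference RNA for 10 genes, 1 point per array, with Ang II (red, n = 15) left of saline (grey, n = 17), marker shape for the day and a bar at the median. Col8a1, Fgf18, Piezo2, Pappa, Trem2 and Ccl8 show no overlap between the groups, and for Cthrc1 the 4 Ang II points of 7 days sit above all other points.

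Other leading rises were Ecrg4, which encodes a secreted peptide precursor, by 2.85, Ms4a7 of macrophages by 2.59, and Ccn5, a matricellular regulator of smooth muscle growth, by 2.50. Col3a1, which encodes type III collagen, was higher by 2.4 and the whey acidic protein family gene Wfdc21 by 2.31. Wfdc21 had nearly the same difference at each time, with 2.43, 2.34 and 2.18 at 7, 14 and 28 days. Arsi, which encodes a sulfatase, was among the smallest p-values with a difference of 1.87 (adjusted p = 1.19e-10).

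The plot of change by day sets such even genes beside uneven ones. C4b, the gene of a complement component, was higher by 1.02, 1.01 and 1.01 at the 3 times, and ran from 3.69 through 4.38 to 5.01 in Ang II aortas and from 2.48 through 3.38 to 3.98 in saline aortas. Its mean difference was 1.01 (0.125, adjusted p = 1.16e-06). Apoc2, the gene of the apolipoprotein that activates lipoprotein lipase, was higher by 1.23, 1.21 and 1.19 and by 1.21 on average (0.296, adjusted p = 0.00273). Its groups overlapped, from 0.61 through 2.68 to 4.44 in Ang II aortas and from 0.56 through 1.11 to 2.93 in saline aortas, and no single time passed the threshold.

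**Figure D2:**
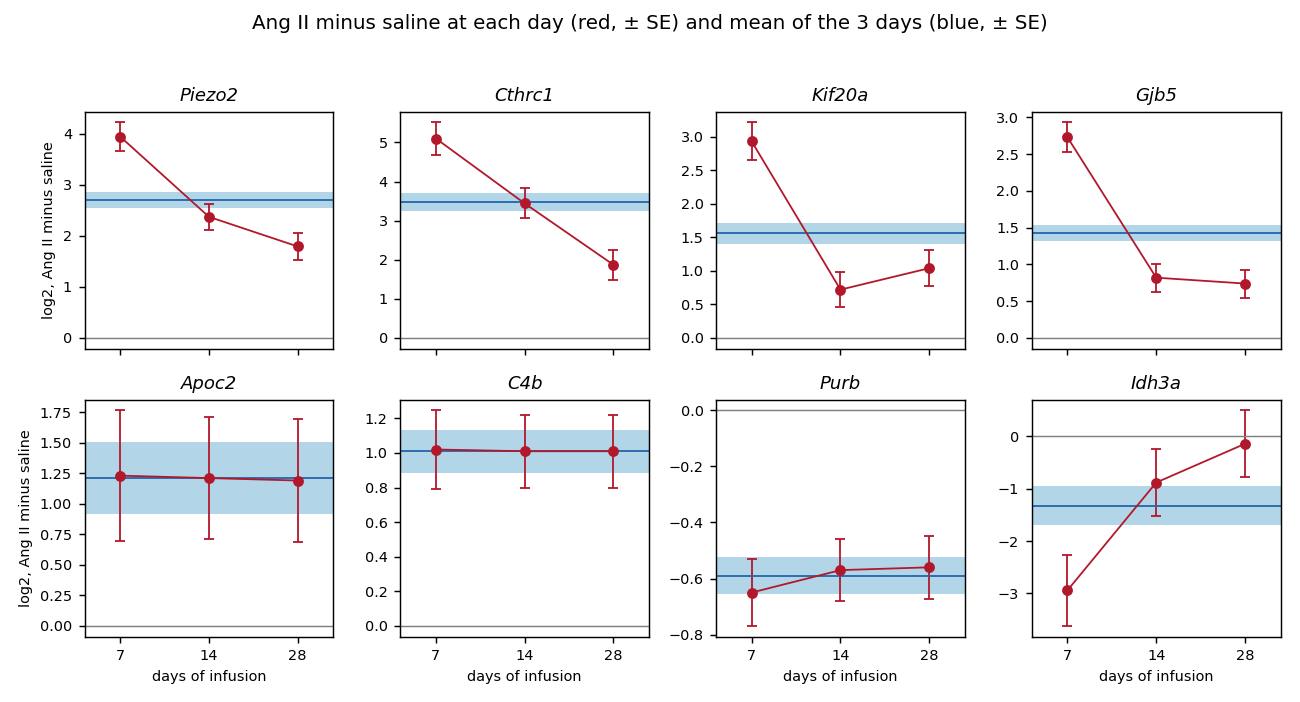
Ang II minus saline in log2 units at 7, 14 and 28 days (red, ± standard error) with the mean of the 3 times (blue line, band ± standard error) for 8 genes. Piezo2, Cthrc1, Kif20a and Gjb5 were highest at 7 days, Apoc2, C4b and Purb stayed near their mean, and Idh3a stood at -2.94 at 7 days and -0.14 at 28 days.

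The 6 genes with the smallest p for a difference among times, of those called on average, had their largest fitted change at 7 days. Gjb5, a connexin gene, was higher by 2.73 at 7 days, 0.82 at 14 days and 0.74 at 28 days (adjusted p for the difference 0.000402). M1ap, known from meiosis, was higher by 2.07, 0.55 and 0.55 (0.00018), and Lhx1, a homeobox gene, by 0.90, 0.07 and 0.07 (0.000584). Flrt2, which encodes a membrane protein of cell adhesion, was higher by 2.03, 0.65 and 0.07 (0.000677). Adamts3, the gene of a procollagen-cutting protease, was well above background on 4 of 17 saline arrays and Gdf6, a growth factor gene of the BMP family, on 1. On no saline array of 7 days was either so, and their differences are bounds there, set against the lowest signal well above background on each array. At 7 days Adamts3 was at least 2.72-fold and Gdf6 at least 4.5-fold higher with Ang II (limma's adjusted p = 3e-08 for each), and at 28 days, where Gdf6 was again dim on all saline arrays, its difference was not called (adjusted p = 0.218). Their mean differences of 0.73 and 1.22 became 2.08 and 3.97 in the deposited series table. For Lhx1, Flrt2 and Adamts3 the mean of 14 and 28 days alone did not pass the threshold. They were at 0.07 (adjusted p = 0.508), 0.36 (adjusted p = 0.071) and 0.27 (adjusted p = 0.0905) there.

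Genes were grouped by function in lists, read against the 16% of all genes that were higher and the 14% that were lower. In the mean of 14 and 28 days alone fewer genes were called, 966 of all 18653 higher and 906 lower. List counts for that mean are read against these. Fibrillar collagens, the rope-forming chains of the wall, were higher for 8 of 11 with a median change of 2.06, and 8 were called in the mean of 14 and 28 days alone. Their medians were 3.26 at 7 days, 1.70 at 14 days and 0.87 at 28 days. At these times alone limma called 7, 6 and 0 of the 11, against 27.7%, 2.11% and 1.12% of all genes. Besides Col1a1 and Col3a1 the examples are Col1a2 at 2.28 (adjusted p = 4.47e-05) and Col11a1, a minor chain that sets fibril width, at 2.25 (adjusted p = 4.43e-06). Col11a1 was even in time at 2.63, 2.37 and 1.74, while Col1a2 was at 4.02, 2.33 and 0.49. Other collagens were higher for 10 of 13 with a median of 0.93, led after Col8a1 and Col8a2 by Col12a1, which lies along fibrils, at 2.15, and by Col6a3 of beaded filaments at 1.86. Col6a3 was at 1.14 (adjusted p = 0.0558) in the mean of 14 and 28 days.

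Enzymes that process collagen were higher for 21 of 26 with a median of 0.87. Lox and Loxl2, which encode crosslinking oxidases, were higher by 1.93 and 1.63, Bmp1, the gene of the protease that trims procollagen, by 1.54, and Loxl3 by 1.53. The median of the list was 1.69 at 7 days, 0.49 at 14 days and 0.32 at 28 days, and the mean of 14 and 28 days called 6 of the 26. Elastic fibre genes were higher for 10 of 16 with a median of 0.76, among them the microfibril genes Mfap2 at 1.46, Mfap5 at 1.36 and Fbn1 at 1.56, and Ltbp2, which binds microfibrils, at 1.73. Eln, which encodes elastin itself, differed by 0.43 (adjusted p = 0.0909). It was called with scan day as a block (0.47, adjusted p = 0.0341), with slide as a block (0.5, adjusted p = 0.019) and without the arrays of 28 days (0.64, adjusted p = 0.0441). It was also called without saline replicate 3 of 14 days (0.49, adjusted p = 0.0459) or 5 of 28 days (0.53, adjusted p = 0.0215). Fbn1 was at 0.78 (adjusted p = 0.125) in the mean of 14 and 28 days.

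Matricellular proteins and proteoglycans, which sit in the matrix and signal to cells, were higher for 18 of 24 with a median of 1.13. Ccn4, a secreted growth regulator, was higher by 1.97 (adjusted p = 4.53e-06) and Spp1, which encodes osteopontin, by 2.06 (adjusted p = 0.00137). Spp1 spread from -6.78 to -0.66 in Ang II aortas and from -7.76 to -2.4 in saline aortas, so that 1 Ang II aorta exceeded all saline aortas. Thbs1, a matricellular gene that also marks platelets, was higher by 1.61 (adjusted p = 8.38e-06). Ccn2, a well-known TGF-beta target, differed by 0.92 (adjusted p = 0.0872), and passed without saline replicate 2 of 14 days (1.06, adjusted p = 0.0423) or Ang II replicate 6 of 28 days (1.05, adjusted p = 0.0462). Spp1 was at 1.57 (adjusted p = 0.0706) in the mean of 14 and 28 days.

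Metalloproteinases and their inhibitors did not move as a block. Of 21 genes 8 were higher and 1 lower, with a median of 0.36, and the lower gene lost its call in 23 of the 32 fits that left out 1 array. The membrane collagenase gene Mmp14 was higher by 2.05 (0.194, adjusted p = 1.57e-08) and the gelatinase gene Mmp2 by 1.31 (adjusted p = 1.74e-05). Mmp12, the macrophage elastase gene, was higher by 0.54 (adjusted p = 0.00976) with a probe well above background on 5 of 15 Ang II and 1 of 17 saline arrays. At 7 days it was dim on all arrays, and at 28 days, dim on all saline arrays, it was at least 2.29-fold higher with Ang II (adjusted p = 0.00887). Mmp3 differed by 0.83 (adjusted p = 0.115; 1.01 and 0.0424 without saline replicate 5 of 28 days) and Mmp9, the other gelatinase gene, by 0.05 (adjusted p = 0.874). Mmp12 was at 0.12 (adjusted p = 0.683) in the mean of 7 and 14 days.

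Cathepsins and serpins were higher for 16 of 18 with a median of 0.66. The lysosomal protease genes Ctss, Ctsk and Lgmn were higher by 2.0, 1.36 and 1.28.

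Fibroblast genes were higher for 13 of 18 with a median of 0.59. Prg4, which encodes lubricin, was higher by 1.95, Cd248 of activated stromal cells by 1.66 and Lrrc15 of matrix-producing fibroblasts by 1.57. The general fibroblast marker Dpt was higher by 0.59 and Dcn differed by 0.66 (adjusted p = 0.0885), which passed without saline replicate 4 (0.77, adjusted p = 0.0433) or 5 (0.8, adjusted p = 0.0267) of 28 days. Dpt was at 0.31 (adjusted p = 0.377) without the arrays of 7 days.

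Among TGF-beta signalling genes 4 of 18 were higher and 1 lower, a median of 0.01. Of the ligands Tgfb1 was higher by 0.59 (0.0851, adjusted p = 7.98e-06), with 14 of 15 Ang II aortas above all saline aortas, and Tgfb2 by 0.75 (adjusted p = 0.0191). Of the coreceptors Eng was higher by 0.41, while Tgfbr3 fell by 0.30 (adjusted p = 0.0178). Wnt pathway and growth factor genes had 12 of 28 higher and 3 lower. Besides Fgf18 the Wnt antagonist gene Frzb was higher by 2.07, the ligand gene Wnt2 by 1.87 and the growth factor carrier gene Igfbp2 by 1.82. Wnt2 differed among times (adjusted p = 0.0141), with 3.21 at 7 days and 0.89 at 28 days. Without the arrays of 7 days Tgfb2 was at 0.31 (adjusted p = 0.554) and Eng at 0.25 (adjusted p = 0.188). With slide as a block Tgfb2 was at 0.67 (adjusted p = 0.0647). Tgfbr3 missed the threshold without any 1 of the 3 times, with adjusted p-values of 0.0722 without 7 days, 0.0557 without 14 days and 0.0811 without 28 days.

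Cartilage genes had 5 of 14 higher and 1 lower. Acan, which encodes aggrecan, was higher by 1.32, Tnfrsf11b, the gene of osteoprotegerin, by 1.55, and the regulators Sox9 and Runx2 by 0.77 and 0.65. None of these 4 passed the threshold in the mean of 14 and 28 days, where they were at 0.78, 0.77, 0.34 and 0.37 (adjusted p-values 0.14, 0.258, 0.274 and 0.194).

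**Figure D3:**
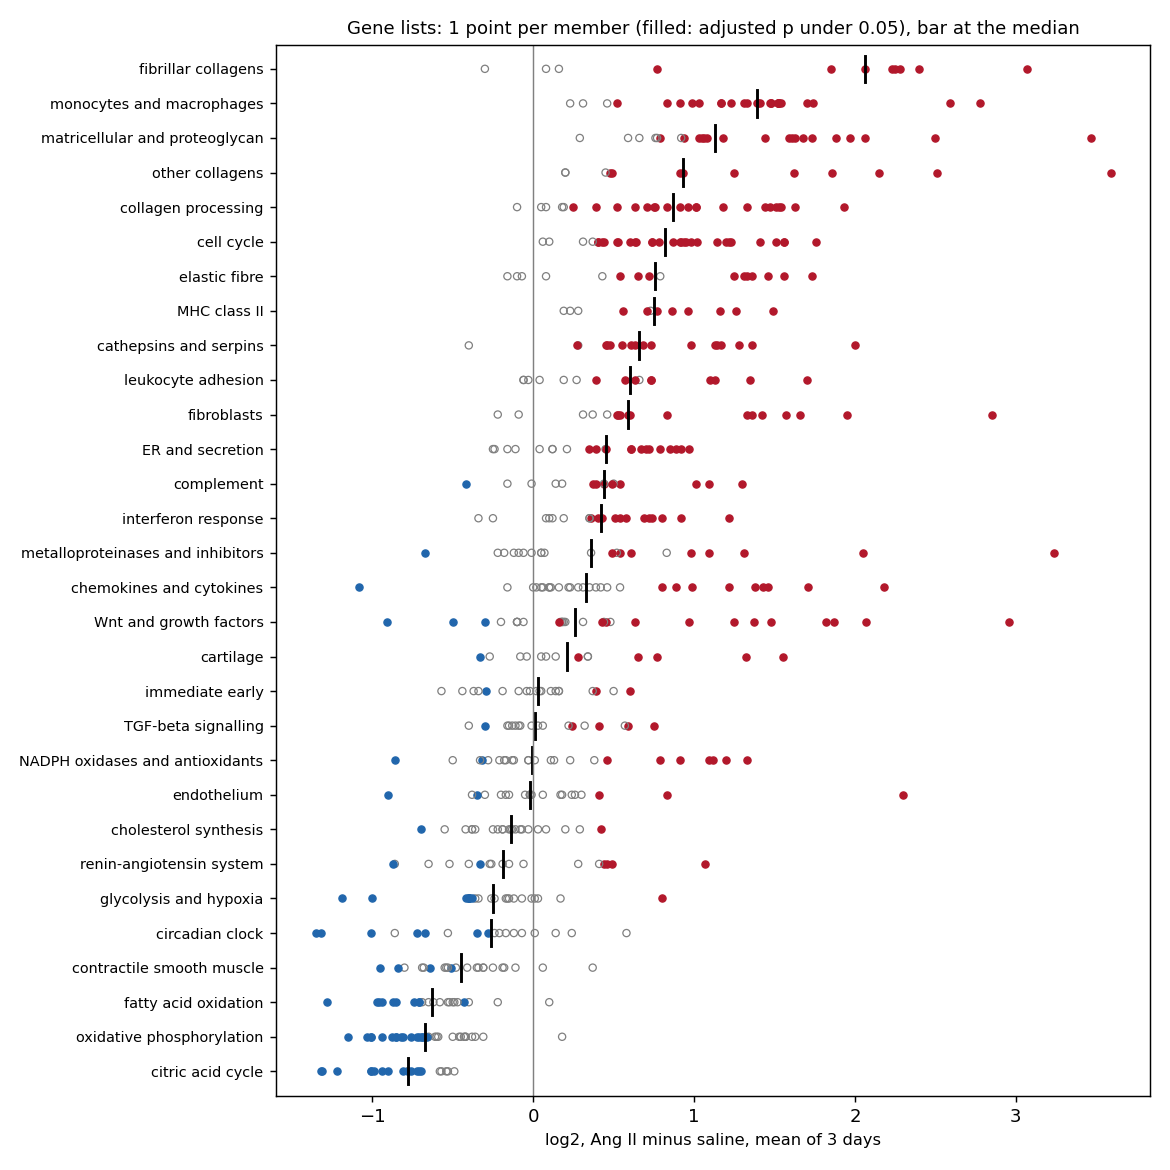
Mean change over the 3 times in log2 units, Ang II minus saline, for each member of 30 gene lists (1 point per gene; red higher and blue lower at an adjusted p under 0.05, open points not called) with a bar at the list median. Fibrillar collagens sit highest with a median of 2.06 and the citric acid cycle lowest with -0.78.

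Genes of monocytes and macrophages were higher for 25 of 28 with a median of 1.39, and 22 were called in the mean of 14 and 28 days. The medians were 1.93 at 7 days, 0.75 at 14 days and 1.34 at 28 days. Trem2, which encodes a lipid receptor of macrophages, ran from -0.92 through 0.43 to 2.13 in Ang II aortas and from -2.93 through -2.20 to -1.33 in saline aortas, without overlap. It was higher by 2.78 (0.246, adjusted p = 4.43e-09). Cd68, a lysosomal marker of macrophages, ran from -1.15 through -0.50 to 1.25 with Ang II and from -2.35 through -1.66 to -1.0 with saline, and 14 of 15 Ang II aortas exceeded the saline range. It was higher by 1.40 (0.187, adjusted p = 3.26e-06). Mpeg1 and the antibody receptor gene Fcgr1 were higher by 1.74 and 1.70.

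The summed macrophage level, the mean centred log2 ratio of the 28 genes, ran from 0.07 through 0.48 to 1.52 in Ang II aortas and from -1.26 through -0.69 to 0.23 in saline aortas. It is given here beside the leukocyte lists that follow, and its part in them was not tested.

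Chemokine and cytokine genes were higher for 9 of 28 and lower for 1. Ccl8, an attractant of monocytes, ran from 4.33 through 5.34 to 6.30 in Ang II aortas and from 2.27 through 3.18 to 3.88 in saline aortas. It was higher by 2.18 (0.172, adjusted p = 5e-10) with no overlap. Il33, which encodes an alarmin of stromal cells, was higher by 1.71, Ccl9 by 1.43 and Ccl7 by 1.46. Il6 was higher by 0.89 (adjusted p = 0.00379), with a probe well above background on 13 of 15 Ang II and 5 of 17 saline arrays, and in the deposited series table it was at 2.93. The classical attractant gene Ccl2 differed by 0.46 (adjusted p = 0.139) and Il1b by 0.39 (adjusted p = 0.293). In saline replicate 4 of 14 days Ccl2 stood at 0.69 and Il1b at 3.44, above every other array of either group. Without that array Ccl2 was higher by 0.65 (adjusted p = 0.000362) and Il1b by 0.58 (adjusted p = 0.0254), and without the 14-day arrays Ccl2 by 0.84 (adjusted p = 0.0321). Without the arrays of 7 days Ccl7 was at 0.64 (adjusted p = 0.332) and Il6 at 0.52 (adjusted p = 0.235).

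Leukocyte adhesion and receptor genes were higher for 9 of 16, among them the chemokine receptor Ccr2 at 1.70, the endothelial ligand Vcam1 at 1.13 and Selplg, which binds selectins, at 1.10. In the mean of 14 and 28 days 1 of the 16 was called, where 1872 of all 18653 genes were. Genes of MHC class II, which present antigen, were higher for 8 of 12 with medians of 0.67, 0.63 and 1.07 at the 3 times. Cd74, the invariant chain, was higher by 1.16, H2-DMb1 by 1.26 and H2-Aa by 0.96. For 5 of the 8 no single time passed the threshold, so these calls rest on the mean. The summed MHC class II level ran from -0.39 through 0.21 to 1.95 in Ang II aortas and from -0.84 through -0.57 to 1.09 in saline aortas. Its highest values, 1.95 and 1.33, were those of Ang II replicates 5 and 6 of 28 days. The B and plasma cell levels of these 2 arrays, 2.87 and 1.97, and their T cell levels, 1.67 and 1.66, were also the highest among Ang II aortas, and the part of these cells was not tested. Leaving out 1 array gave 8 or 9 called MHC class II genes. Within scan day 1 their median was 0.38 with 1 of 12 called, and within scan day 2 it was 1.25 with 9 called. Cd74 was at 0.69 (adjusted p = 0.185) and H2-Aa at 0.4 (adjusted p = 0.388) within scan day 1. Without the arrays of 7 days Ccr2 was at 1.05 (adjusted p = 0.0529), Vcam1 at 0.77 (adjusted p = 0.0673) and Selplg at 0.86 (adjusted p = 0.0759). Without those of 28 days H2-Aa was at 0.74 (adjusted p = 0.0727).

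T cell genes had 1 of 16 higher, Cd8b1 at 0.48, neutrophil genes 1 of 13 and B and plasma cell genes 0 of 12 by limma, with 0 at an unadjusted p under 0.05. The neutrophil gene was Mpo at 0.43, which lost its call in 4 of 32 fits that left out 1 array, up to an adjusted p of 0.0854 without Ang II replicate 2 of 7 days. In the B and plasma cell list 5 of 12 genes were well above background on under 16 of the 32 arrays. Complement genes were higher for 8 of 15 and lower for 1. After C4b the examples are Cfp, which encodes properdin, at 1.30, with 14 of 15 Ang II aortas above the saline range, and the anaphylatoxin receptor gene C3ar1 at 1.09. Interferon response genes were higher for 12 of 20, with Oas2 at 1.22, Oas1a at 0.92 and Ddx58, a sensor of viral RNA, at 0.80. Of the NADPH oxidase and antioxidant genes 7 of 24 were higher and 2 lower. The phagocyte oxidase genes Cybb and Ncf4 were higher by 1.33 and 1.09. In the mean of all its probes Cd8b1 was at 0.28 (adjusted p = 0.511). The neutrophil count was 0 without Ang II replicate 2 or 3 of 7 days, 4 of 14 days or 5 of 28 days, 2 without Ang II replicate 1 of 7 days and 4 without saline replicate 4 of 14 days. Cd8b1 was at 0.27 (adjusted p = 0.122) and Mpo at 0.18 (adjusted p = 0.593) without the arrays of 7 days.

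Cell cycle genes, which are transcribed in dividing cells, were higher for 28 of 32 with a median of 0.82. Their medians were 1.61 at 7 days, 0.38 at 14 days and 0.46 at 28 days, and for 13 of the 32 the effect differed among times, against 0.563% of all genes. The mean of 14 and 28 days called 15. Kif20a, a mitotic kinesin gene, ran from -4.13 through -3.04 to -1.12 in Ang II aortas and from -4.68 through -4.15 to -3.53 in saline aortas. It was higher by 2.93 at 7 days, 0.72 at 14 days and 1.04 at 28 days, and by 1.56 on average (0.157, adjusted p = 4.39e-08). Mki67, the gene of a standard proliferation marker, was higher by 1.76, Birc5 by 1.56 and Cenpe, a kinetochore motor gene, by 1.51. Pcna, the gene of the replication clamp, named after its value was seen, was at 0.06 on average (adjusted p = 0.581), with 0.36, -0.47 and 0.29 at the 3 times (adjusted p for the difference 0.0379), and was called without 14 days (0.32, adjusted p = 0.0122).

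Because these genes moved together, the 250 bases before their transcription starts were read from RefSeq promoters of mouse build GRCm38.p6. Of the 32 genes 28 matched, with 29 starts. Mitotic promoters are known for CCAAT boxes, bound by NF-Y, and for the cell cycle homology element, searched here as TTTGAA. On either strand CCAAT was found before 24 of the 29 starts (82.8%), against 33.8% of 32851 starts of all genes, and TTTGAA before 10 (34.5%), against 16% of all starts. CCAAT was not particular to this list. In the other list searched, the circadian clock genes, it was found before 12 of 19 starts (63.2%), and TTTGAA before 0. In the sequences shown 0 positions belonged to more than 1 match. The 4 promoters below, picked after the search because they hold both motifs, are printed 5′ to 3′ with matches to either motif, on either strand, in capitals. They lie at chr7:135716380-135716629 for Mki67, chr4:118437344-118437593 for Cdc20, chr9:70421555-70421804 for Ccnb2 and chr11:99024190-99024439 for Top2a, all on the minus strand.
Mki67: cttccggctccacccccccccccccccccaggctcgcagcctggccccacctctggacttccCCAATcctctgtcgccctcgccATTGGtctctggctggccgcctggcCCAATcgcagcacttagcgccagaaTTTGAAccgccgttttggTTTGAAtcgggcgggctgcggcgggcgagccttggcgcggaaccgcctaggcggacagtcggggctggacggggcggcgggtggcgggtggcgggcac
Cdc20: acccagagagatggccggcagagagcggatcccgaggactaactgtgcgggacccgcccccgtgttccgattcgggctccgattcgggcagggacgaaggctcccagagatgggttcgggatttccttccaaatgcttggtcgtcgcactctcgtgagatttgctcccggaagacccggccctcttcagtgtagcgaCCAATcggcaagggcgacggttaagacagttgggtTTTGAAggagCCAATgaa
Ccnb2: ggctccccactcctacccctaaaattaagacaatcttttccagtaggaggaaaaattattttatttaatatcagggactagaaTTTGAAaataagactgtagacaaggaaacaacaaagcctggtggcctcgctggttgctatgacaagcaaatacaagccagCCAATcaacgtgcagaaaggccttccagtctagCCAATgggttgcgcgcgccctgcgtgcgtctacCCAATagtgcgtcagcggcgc
Top2a: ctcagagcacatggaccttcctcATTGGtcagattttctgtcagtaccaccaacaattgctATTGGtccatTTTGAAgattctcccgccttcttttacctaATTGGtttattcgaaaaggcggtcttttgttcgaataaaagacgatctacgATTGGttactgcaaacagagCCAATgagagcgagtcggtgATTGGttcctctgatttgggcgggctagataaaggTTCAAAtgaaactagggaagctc
Mki67 and Top2a, which encodes the topoisomerase of mitosis, hold 5 and 8 matches, Cdc20, an activator of anaphase, 3, and Ccnb2, which encodes a mitotic cyclin, 4. On average Top2a was higher by 0.78, Cdc20 by 1.22 and Ccnb2 by 0.74. A match describes these letters and not a bound site. Top2a was at 0.42 (adjusted p = 0.0909) in the mean of 14 and 28 days.

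Genes of the endoplasmic reticulum and secretion, which fold exported proteins, were higher for 13 of 22 with a median of 0.45. The disulphide isomerase genes Pdia4 and Pdia3 were higher by 0.92 and 0.85, and the stress-induced genes Sdf2l1 and Creld2 by 0.97 and 0.89. Creld2 was at 0.54 (adjusted p = 0.0747) in the mean of 14 and 28 days.

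The falls were smaller and overlapped more. Purb, which encodes a DNA-binding repressor of smooth muscle actin transcription, had the smallest p among them. It ran from -0.68 through -0.37 to -0.11 in Ang II aortas and from -0.12 through 0.21 to 0.39 in saline aortas, so that 14 of 15 Ang II aortas lay below the saline range. It fell by 0.59 (0.0661, adjusted p = 2.53e-07), nearly alike at the 3 times with -0.65, -0.57 and -0.56. These values come from the brightest probe of Purb, and in the mean of all its probes the difference was -0.15 (adjusted p = 0.181). Mettl15, the gene of a mitochondrial ribosomal RNA methyltransferase, ran from -1.26 through -0.84 to -0.37 with Ang II and from -0.56 through -0.16 to 0.22 with saline. It fell by 0.70 (0.0781, adjusted p = 2.6e-07). Lin52 of the DREAM repressor complex fell by 0.98, the lipid-binding Osbpl1a by 0.97, the ubiquitin ligase gene Fbxo3 by 0.95 and the splicing gene Mfap1a by 0.49, each with 10 to 13 of 15 Ang II aortas below all saline aortas.

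Cav2, which encodes a caveolin of the membrane pits of muscle and endothelium, ran from -1.66 through -0.57 to 0.84 in Ang II aortas and from -0.04 through 0.97 to 1.37 in saline aortas. It fell by 1.42 (0.188, adjusted p = 2.83e-06). Its level was below the saline range in 9 Ang II aortas, and at 28 days 5 of the 6 Ang II aortas lay between 0.41 and 0.84. Dmd, which encodes dystrophin, fell by 1.46 (0.267, adjusted p = 0.000155), with 0.47, 1.43 and 3.43 as lowest, median and highest value in Ang II aortas and 2.15, 3.12 and 4.21 in saline aortas. Bex4 fell by 1.5 and its lowest, median and highest values were 0.18, 1.5 and 2.88 with Ang II and 1.74, 3.16 and 4.61 with saline. Akap6, which encodes an anchor of protein kinase A at the nuclear envelope of muscle cells, fell by 1.37, and the potassium channel subunit gene Kcnab1 by 1.59. Akap6 was at -0.8 (adjusted p = 0.24) in the mean of 14 and 28 days.

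ND4L, a mitochondrially encoded subunit of complex I, ran from -0.19 through 1.24 to 2.65 in Ang II aortas and from 1.18 through 2.89 to 4.03 in saline aortas, and fell by 1.70 (0.275, adjusted p = 3.8e-05). Slc22a2, which encodes a transporter of organic cations, ran from 0.07 through 0.86 to 1.75 with Ang II and from 1.31 through 2.38 to 4.17 with saline. It fell by 1.38 (0.205, adjusted p = 1.34e-05), and 11 of 15 Ang II aortas lay below the saline range. The methyltransferase gene Inmt fell by 1.6. Vwc2, the gene of a BMP antagonist, fell by 1.42 (adjusted p = 0.00268), and in the deposited series table it was at -0.61 (adjusted p = 0.152).

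The largest fall, 2.18, was that of Kap, a kidney gene regulated by androgen. It ran from -0.33 through 0.11 to 5.56 in Ang II aortas and from 0.01 through 2.13 to 6.70 in saline aortas, with a probe well above background on 5 of 15 Ang II and 13 of 17 saline arrays. A single Ang II aorta, replicate 2 at 28 days, held the value of 5.56, while the next was 0.82. The summed kidney tubule level, to which Kap itself belongs, ran from -0.42 through -0.34 to 0.91 in Ang II aortas and from -0.45 through -0.04 to 1.57 in saline aortas. With the summed levels of kidney, liver, white fat and chromaffin genes in the fit Kap was at -0.58 (adjusted p = 0.173). Kap enters that kidney level, so this fit sets Kap in part against itself, and the part of kidney tissue was not tested. In the same fit Slc22a2 stood at -1.17 and Sgk2, a kinase gene that had fallen by 1.70, at -1.31, both still called. Vip, a gene of vasodilator nerves, fell by 1.43 (adjusted p = 0.0275), was well above background on 3 of 15 Ang II and 9 of 17 saline arrays, and lost its call without saline replicate 2 of 28 days (-1.22, adjusted p = 0.053). Kap was at -1.46 (adjusted p = 0.162) without the arrays of 14 days. Vip was at -1.3 (adjusted p = 0.167) without those of 7 days and at -1.32 (adjusted p = 0.11) without those of 28 days.

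**Figure D4:**
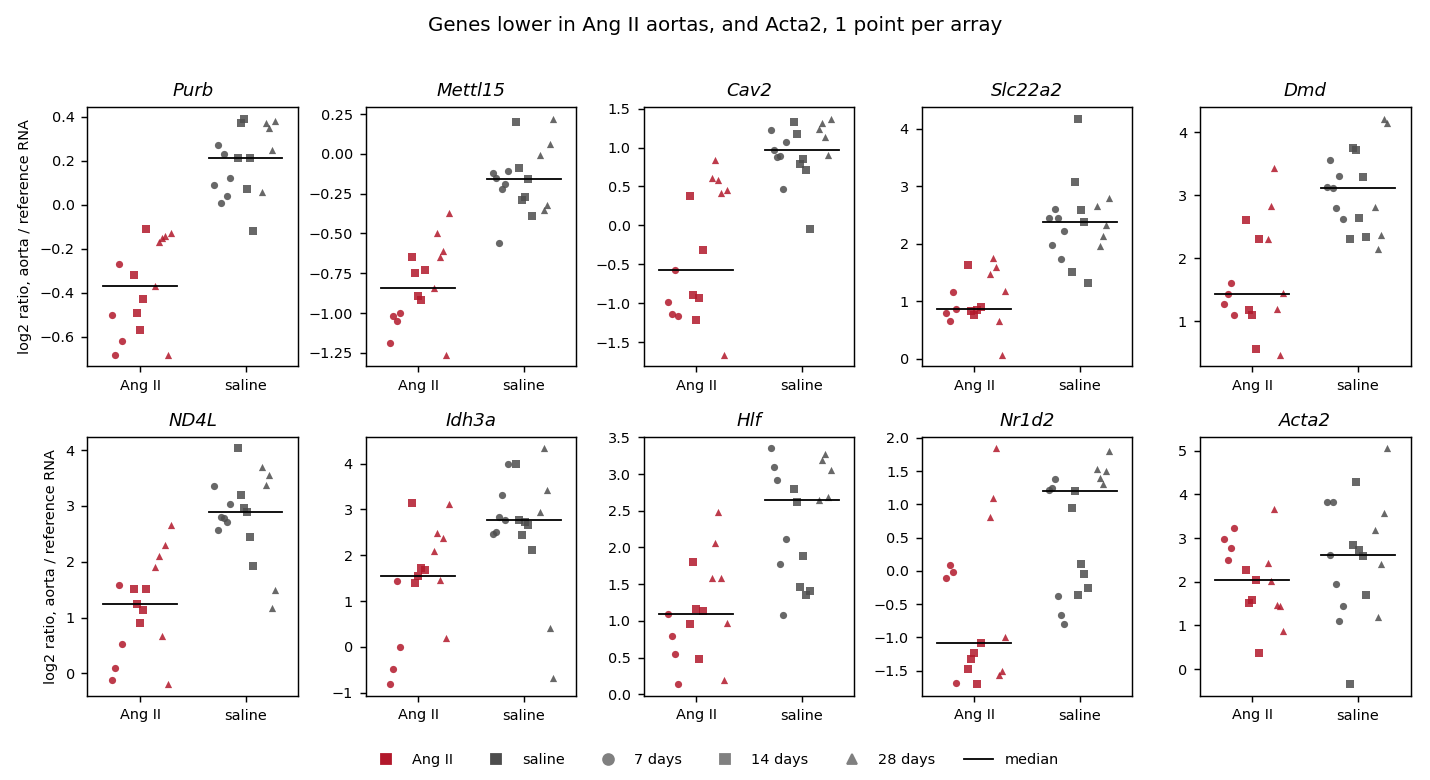
Log2 ratio of aorta to reference RNA for 9 genes lower in Ang II aortas and for Acta2, 1 point per array, with Ang II (red, n = 15) left of saline (grey, n = 17), marker shape for the day and a bar at the median. Purb shows 14 of 15 Ang II points below the saline range, the 3 lowest Ang II points of Idh3a are of 7 days, and Acta2 overlaps throughout.

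Oxidative phosphorylation genes, of the respiratory chain, were lower for 17 of 31 with a median of -0.67. Those of the citric acid cycle were lower for 14 of 20 with a median of -0.78, and those of fatty acid oxidation for 10 of 22 with a median of -0.63. By limma 0 members of any of the 3 lists were called higher, and 0 were higher at an unadjusted p under 0.05. At 7 days the medians were -1.59, -2.0 and -1.80 for the 3 lists in this order, and at 28 days they were 0.00, -0.01 and 0.16. The saline aortas of 28 days were split. The summed oxidative phosphorylation level was 0.35, 1.11 and 0.69 in replicates 1 to 3, and -1.14 and -1.58 in replicates 4 and 5. In Ang II aortas of 28 days it ran from -0.9 to 0.76. In the mean of 14 and 28 days 0 members of any of the 3 lists were called by limma, and 3, 2 and 2 were lower at an unadjusted p under 0.05. When 1 array was left out, 14 to 25 of the 31 oxidative phosphorylation genes and 13 to 20 of the 20 cycle genes were lower. The fatty acid oxidation count depended on single arrays. It was 3 without Ang II replicate 1 or 2 of 7 days, 4, 5 and 6 without saline replicates 2, 3 and 1 of 28 days, 6 without Ang II replicate 5 of 28 days and 18 without saline replicate 5 of 28 days.

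Idh3a, which encodes a subunit of the cycle's isocitrate dehydrogenase, ran from -0.81 through 1.55 to 3.14 in Ang II aortas and from -0.67 through 2.76 to 4.33 in saline aortas. It fell by 1.32 on average (0.377, adjusted p = 0.00852), by 2.94 at 7 days and by 0.14 at 28 days. Sucla2 and Dld of the same cycle fell by 1.31 and 1.22, Uqcrfs1 and Ndufv2 of complexes III and I by 1.15 and 1.03, and Acsl1, which activates fatty acids, by 1.28. For these 6 genes the mean of 14 and 28 days did not pass the threshold. Their changes there lay between -0.8 for Acsl1, with an adjusted p of 0.151, and -0.49 for Uqcrfs1, with one of 0.406.

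Markers of fat, which borders the vessel, moved with these lists, and their part in them was not tested. The summed brown adipocyte level ran from -2.07 through -0.02 to 0.63 in Ang II aortas and from -1.85 through 0.31 to 0.88 in saline aortas, and the white adipocyte level from -1.37 through -0.03 to 0.66 in Ang II aortas and from -1.02 through 0.17 to 0.71 in saline aortas. Of the brown adipocyte genes 2 of 13 were lower and 1 higher, and of the white adipocyte genes 2 of 23 were lower, among them Lpl, the lipoprotein lipase gene, at -1.08 and Otop1 of brown fat at -1.29. The neighbouring tissue levels put in the fit were those of white adipocyte, chromaffin, kidney tubule and hepatocyte genes, and the brown adipocyte level was not among them. With these levels in the fit 12 of 31, 11 of 20 and 4 of 22 metabolic genes stayed lower, and Idh3a was at -0.99 (adjusted p = 0.0363). Within scan day 1 the list medians were -1.19, -1.28 and -1.16, and within scan day 2, which held 1 of the 4 Ang II arrays of 7 days, -0.09, -0.32 and -0.08. Lpl was at -0.37 (adjusted p = 0.511) and Otop1 at -0.56 (adjusted p = 0.512) in the mean of 14 and 28 days.

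Glycolysis and hypoxia genes had 7 of 22 lower and 1 higher. The 7 became 3 without Ang II replicate 2 of 7 days, and 4 without any of Ang II replicate 1 of 7 days, 3 of 14 days or 3 and 5 of 28 days, or saline replicate 4 of 7 days or 2 and 3 of 28 days. Bnip3 of mitochondrial turnover fell by 1.19 (adjusted p = 7.89e-05) and Ldhb by 1.0, while the lactate exporter gene Slc16a3 was higher by 0.80. Cholesterol synthesis genes had 1 of 22 in each direction, Ebp at 0.42 and Fdft1 at -0.70. None of Ldhb, Slc16a3, Ebp and Fdft1 passed in the mean of 14 and 28 days, where their adjusted p-values were 0.581, 0.197, 0.339 and 0.914.

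Circadian clock genes, whose proteins turn each other on and off over the day, were lower for 7 of 18. By limma 0 were called higher, and 2 were higher at an unadjusted p under 0.05. Of the 18 mean changes 14 were negative and 4 positive, from -1.35 to 0.58, and the genes named below are all among the negative ones. The list's median was -0.26, and at the 3 times it was -0.30, -0.23 and -0.36. Hlf, which encodes an output factor of the clock, ran from 0.14 through 1.10 to 2.49 in Ang II aortas and from 1.08 through 2.65 to 3.35 in saline aortas, and fell by 1.35 (0.223, adjusted p = 4.77e-05). Nr1d2, one of the pair of REV-ERB repressors, ran from -1.70 through -1.08 to 1.84 with Ang II and from -0.80 through 1.20 to 1.80 with saline. It fell by 1.32 (adjusted p = 0.00177), its relative Nr1d1 by 1.01 (adjusted p = 0.00344) and Tef, another output factor, by 0.72 (adjusted p = 0.0159). Of 4 further clock genes, picked after their values were seen, the activator gene Clock and the repressor gene Cry2 fell by 0.28 and 0.35, while Dbp was at -0.86 (adjusted p = 0.0947) and Per2 at -0.53 (adjusted p = 0.0903). With scan day as a block both passed, Dbp at -0.96 (adjusted p = 0.0268) and Per2 at -0.59 (adjusted p = 0.0307). Per2 also passed with slide as a block (-0.64, adjusted p = 0.032), and Dbp without Ang II replicate 3 of 28 days (adjusted p = 0.0428). Leaving out 1 time ended the call of 4 of these genes. Nr1d1 was at -0.79 (adjusted p = 0.0597) without 14 days, and Tef at -0.71 (adjusted p = 0.0904) without 7 days and -0.56 (adjusted p = 0.136) without 28 days. Clock was at -0.19 (adjusted p = 0.222) without 14 days and -0.26 (adjusted p = 0.0931) without 28 days, and Cry2 at -0.32 (adjusted p = 0.116) without 7 days and -0.3 (adjusted p = 0.0961) without 28 days.

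Nr1d2 varied widely within groups. In saline aortas at 7 days it was 1.22, 1.24 and 1.38 in replicates 1 to 3 and -0.37, -0.66 and -0.80 in replicates 4 to 6. In Ang II aortas at 28 days it was 0.81, 1.10 and 1.84 in replicates 1 to 3 and -1.56, -1.5 and -0.99 in replicates 4 to 6. These replicates lie on scan day 1 and scan day 2 in that order. Ang II aortas at 7 days did not split so, since their lowest value, -1.69, was of replicate 4 on scan day 1, and the next was -0.11. With scan day as a block the fall of Nr1d2 was 1.40 (adjusted p = 0.000185), within scan day 1 it was 1.29 and within scan day 2 it was 1.23. The 2 scan days differed by -0.95 for Nr1d2 (adjusted p = 0.157). With that block 9 of the 18 clock genes were lower. The hour at which tissue was taken is not given in the sources used here. For 6 of the 7 called clock genes no single time passed the threshold.

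Clock output genes are known for E-boxes, searched as CACGTG on the same 250 bases. Of the 18 genes 15 matched with 19 starts, of which 6 (31.6%) held it, against 6.02% of all starts. Tef has starts at chr15:81802423-81802672 and chr15:81811164-81811413, both on the plus strand, each with 1 E-box, shown in capitals.
Tef: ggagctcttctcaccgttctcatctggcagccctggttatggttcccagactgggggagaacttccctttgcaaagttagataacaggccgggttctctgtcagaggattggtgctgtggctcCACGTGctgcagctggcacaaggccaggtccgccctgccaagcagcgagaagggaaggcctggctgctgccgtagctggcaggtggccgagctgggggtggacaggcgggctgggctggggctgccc
Tef: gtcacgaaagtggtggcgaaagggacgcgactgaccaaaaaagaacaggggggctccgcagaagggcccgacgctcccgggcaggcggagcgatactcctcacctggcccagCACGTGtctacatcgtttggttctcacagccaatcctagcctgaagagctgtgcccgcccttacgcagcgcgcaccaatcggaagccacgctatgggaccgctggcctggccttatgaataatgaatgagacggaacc
Both starts of Tef are shown because each holds the motif and the gene fell, and both are among the 6 starts counted. A match describes these letters and not a bound site, and its part in the fall was not tested.

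Contractile smooth muscle genes, which make the force of the wall, were lower for 4 of 22 (2 to 6 when 1 array was left out), with 0 called higher by limma and 1 higher at an unadjusted p under 0.05, with a median of -0.45. The medians by time were 0.02, -0.64 and -0.85. Acta2, the gene of smooth muscle actin, ran from 0.36 through 2.03 to 3.66 in Ang II aortas and from -0.34 through 2.61 to 5.05 in saline aortas. It differed by -0.48 (0.39, adjusted p = 0.365), and the groups overlapped throughout. Tagln was at -0.41 (adjusted p = 0.523), Cnn1 at -0.19 (adjusted p = 0.623) and Myh11 at 0.06 (adjusted p = 0.844). Among those called were Ppp1r12b of myosin phosphatase at -0.95 (adjusted p = 0.019), Myocd, the coactivator of this programme, at -0.84 (adjusted p = 0.0458) and Vcl, which encodes vinculin, at -0.51 (adjusted p = 0.0387). Of the 32 fits that left out 1 array, Myocd lost its call in 23 and Vcl in 16, with the highest adjusted p of 0.0908 for Myocd without Ang II replicate 2 of 7 days and of 0.0647 for Vcl without Ang II replicate 5 of 28 days. Myocd and Vcl also missed the threshold without any 1 of the 3 times, with the highest adjusted p-values of 0.321 and 0.246 both without 14 days. Ppp1r12b had an adjusted p of 0.0516 without 14 days and of 0.156 without 28 days. With scan day as a block Myocd had an adjusted p of 0.0542, and with slide as a block Vcl one of 0.0526.

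Endothelial genes had 3 of 21 higher, or 5 without saline replicate 3 of 14 days, and 2 lower. Esm1, a proteoglycan of sprouting endothelium, was higher by 2.30 (adjusted p = 0.000108), with 4.48 at 7 days and 0.92 at 28 days, and Aplnr, the apelin receptor gene, by 0.83. Tek, which encodes the angiopoietin receptor, fell by 0.90 (adjusted p = 0.000848) and in the deposited series table was at -0.21 (adjusted p = 0.55). Pecam1 fell by 0.35 (adjusted p = 0.0101). Esm1 was at 1.21 (adjusted p = 0.114) without the arrays of 7 days. Pecam1 was at -0.32 (adjusted p = 0.0933) without those of 7 days and at -0.27 (adjusted p = 0.104) without those of 14 days.

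Genes of the renin-angiotensin system itself had 4 of 17 higher and 2 lower. Anpep, whose peptidase shortens angiotensin III, was higher by 1.07 (0.165, adjusted p = 2.02e-05), and Rcan1, induced by calcineurin signalling, by 0.49. Ren1 was higher by 0.46 (adjusted p = 0.000965), with a probe well above background on 12 of 15 Ang II and 4 of 17 saline arrays, and in the deposited series table it was at 1.33. Mme, the gene of neprilysin, fell by 0.87 (adjusted p = 0.014). Ace, the gene of the converting enzyme, was at 0.44, a call lost in 10 of the 32 fits that left out 1 array, with the highest adjusted p of 0.0647 without Ang II replicate 1 of 7 days. Agtr1a, the gene of the main receptor, ran from 0.59 through 2.89 to 6.01 in Ang II aortas and from 1.28 through 3.62 to 6.25 in saline aortas. It differed by -0.86 (adjusted p = 0.189), with -2.93, 1.04 and -0.69 at the 3 times. Without the arrays of 14 days it fell by 1.81 (adjusted p = 0.0268). The median change of chromaffin and sympathetic neuron genes had the same signs, with -2.62, 1.35 and -1.13. With all the neighbouring tissue levels together in the fit Agtr1a was at -0.22 (adjusted p = 0.707). The part of any single tissue in its change was not tested. Agt was at 0.28 (adjusted p = 0.43). Rcan1 was at 0.33 (adjusted p = 0.16) and Mme at -0.56 (adjusted p = 0.289) without the arrays of 7 days, and Mme at -0.81 (adjusted p = 0.0634) without those of 14 days. Ace had an adjusted p of 0.177 without 7 days and of 0.129 without 14 days. With slide as a block Ace was at 0.35 (adjusted p = 0.11). In the mean of all probes Rcan1 was at 0.13 (adjusted p = 0.331) and Ace at 0.21 (adjusted p = 0.253).

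Several further genes were called on the mean and at no single time. Thbs4, a matricellular gene, was higher by 1.44 (adjusted p = 0.0148), and in the deposited series table it was at 0.52 (adjusted p = 0.125). The Wnt modulator gene Sfrp2 was higher by 1.25, the serpin gene Serpina3g by 1.22 and the metallothionein gene Mt2 by 1.08. Without the arrays of 7 days Thbs4 was at 1.55 (adjusted p = 0.0611), Sfrp2 at 0.95 (adjusted p = 0.245), Serpina3g at 1.2 (adjusted p = 0.0583) and Mt2 at 0.88 (adjusted p = 0.179). Without those of 14 days Thbs4 and Sfrp2 had adjusted p-values of 0.0882 and 0.0948, and without those of 28 days Serpina3g and Mt2 had 0.0719 and 0.0565. With slide as a block Sfrp2 was at 1.14 (adjusted p = 0.0854).

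Lists of neighbouring tissues moved unevenly among the aortas, as the plot of their summed levels shows. The chromaffin and sympathetic neuron level ran from -2.71 through 0.46 to 2.03 in Ang II aortas and from -2.06 through 0.37 to 1.89 in saline aortas. The median change of its 21 genes was -2.62 at 7 days, 1.35 at 14 days and -1.13 at 28 days, and 1 of them was called lower on average (0 to 4 when 1 array was left out). The hepatocyte level ran from -1.27 through -0.62 to 3.39 in Ang II aortas and from -1.20 through 0.01 to 1.84 in saline aortas, with 0 of 13 genes called by limma and 2 at an unadjusted p under 0.05. The skeletal muscle level ran from -1.13 through -0.31 to 2.99 in Ang II aortas and from -0.99 through -0.61 to 1.43 in saline aortas, with 0 of 15 genes called by limma and 1 at an unadjusted p under 0.05. Kidney tubule genes had 3 of 13 lower and 1 higher, with 7 lower without Ang II replicate 2 of 28 days and 6 without saline replicate 5 or 6 of 14 days. With the levels of white fat, chromaffin, kidney and liver genes in the fit 3411 genes were called on average and 0 among times, and 3252 of the 3411 were among the 5584. Of the 148 called genes named here 133 passed in that fit. Those that did not were Dpt, H2-Aa, Kap, Vip, Otop1, Ebp, Fdft1, Clock, Cry2, Myocd, Mme, Sfrp2, Serpina3g, Mpo and Ace, with adjusted p-values of 0.0534 for Ebp to 0.287 for Myocd.

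**Figure D5:**
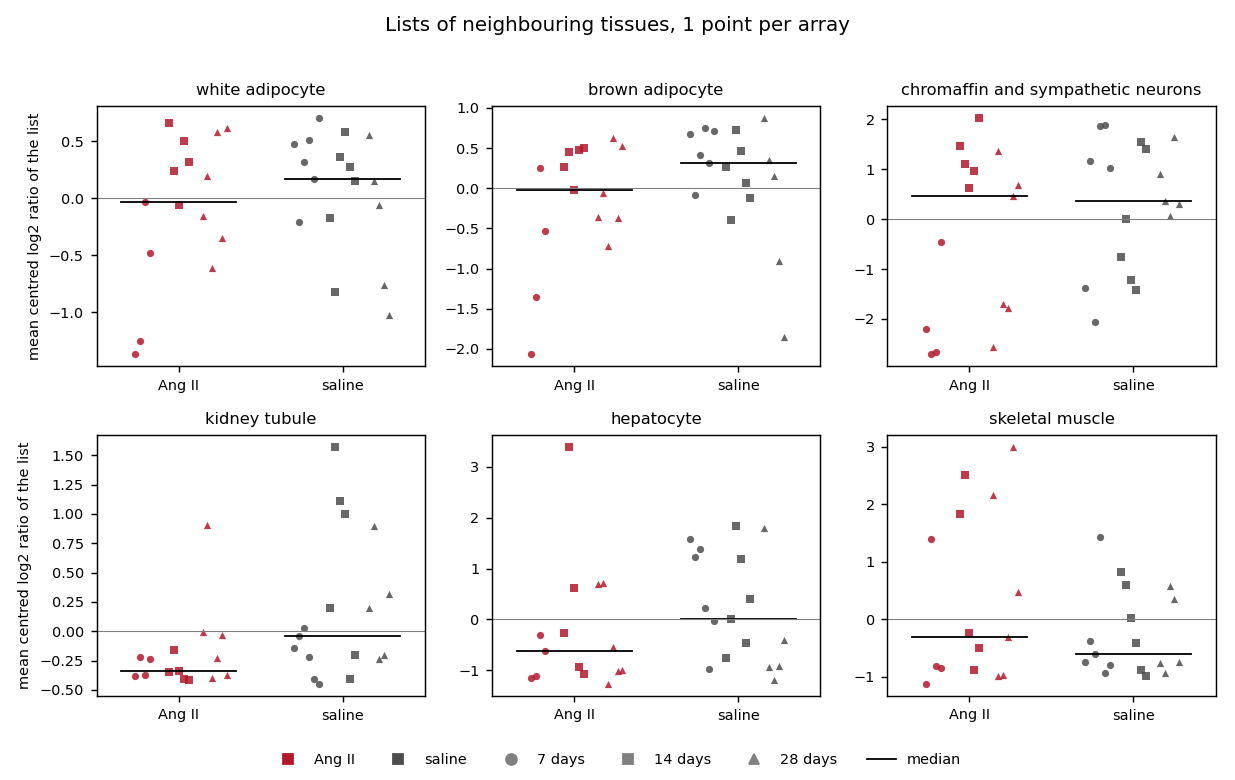
Mean centred log2 ratio of 6 lists of neighbouring tissues, 1 point per array, with Ang II (red, n = 15) left of saline (grey, n = 17), marker shape for the day and a bar at the median. The 2 lowest white and the 2 lowest brown adipocyte levels in Ang II aortas belong to arrays of 7 days, and 1 Ang II aorta of 14 days has a hepatocyte level of 3.39.

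The size of some changes moved with the way the arrays were read. Of the 148 called genes named here 15 had a change over 1.5 times as large in the deposited series table and 8 one over 1.5 times as small. Besides those given above, the larger ones were Gjb5 at 2.66, Lhx1 at 0.58, Mmp12 at 1.63, Lrrc15 at 2.43, Tgfbr3 at -0.93, Runx2 at 1.23, C3ar1 at 2.11, Top2a at 1.43, Kap at -3.64, Vip at -2.73 and Mpo at 1.15. The smaller ones were Mfap5 at 0.8, Wnt2 at 0.77, H2-Aa at 0.56, Bex4 at -0.82 and Myocd at -0.48. In the mean of all probes of a gene 32 of the 148 had a change over 1.5 times as small, among them Piezo2 at 1.56, Pappa at 0.69, Cav2 at -0.72, Dmd at -0.5 and Nr1d1 at -0.38, and 7 lost their call.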

How the data were processed

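Two-colour Agilent arrays compared 1 aorta (Cy5) with a universal mouse reference RNA (Cy3), per the labels. The deposited files hold spot intensity and local background per channel, and log10 ratios of the scanner software, Agilent Feature Extraction 9.5.3.1, per the file headers. The authors' deposited series table tracked these ratios on a log2 scale, with slopes of 3.321 to 3.328 against the log10 values, and served as an alternative.

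Background was corrected by normexp with an offset of 50, then loess was run within each array. The normexp fit left out spots whose local background was marked as uneven or as an outlier. Control spots were left out. Of probes well above background on at least 3 of 32 arrays, the brightest stood for each gene. limma 3.58.1 in R 4.3.3 fitted 6 group means, and called genes at a Benjamini-Hochberg adjusted p of 0.05 over 18653 genes. The procedure was tested on simulated data. All p-values measure the spread between arrays of 1 group.

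The groups, gene lists and tests were chosen with earlier results of these data known. Named genes were the 14 largest changes and 6 smallest p-values in each direction, the 6 largest changes in each direction called at no single time, the 6 with the smallest p for a difference among times, up to 4 per list and fixed genes of the field. Some genes that this rule names are not reported here. Aortas that had dissected entered no comparison.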

Additional observations from a re-analysis of the deposited data

Results flagged for a closer look

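Among 204 groups of 4 to 6 arrays tested for an array apart from the others, 18 held one, where chance flags about 1 in 20. In Ang II aortas these were at 7 days Cd68 at -0.90 (replicate 3), Nr1d2 at -1.69 (replicate 4), and a summed level of 1.40 for skeletal muscle and -0.20 for contractile genes (both replicate 2). At 14 days they were Pappa at 1.98 (replicate 2), and Slc22a2 at 1.62, Idh3a at 3.14 and the macrophage level at 0.07 (all replicate 1). At 28 days they were Cav2 at -1.66 (replicate 5), Kap at 5.56 and the kidney tubule level at 0.91 (both replicate 2).

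In saline aortas they were at 7 days Mettl15 at -0.56 (replicate 3), Bex4 at 2.61 (replicate 6) and the skeletal muscle level at 1.43 (replicate 4). At 14 days it was Idh3a at 4.00 (replicate 1). At 28 days they were Cthrc1 at 0.87 (replicate 3), Apoc2 at 2.44 and the hepatocyte level at 1.80 (both replicate 1).

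The effect of Ang II differed among 7, 14 and 28 days, by limma's F-test with adjusted p-values of 0.00018 for M1ap, 0.000402 for Gjb5, 0.000584 for Lhx1, and 0.000677 for both Flrt2 and Adamts3. It was 0.00404 for Gdf6, 0.00792 for both Kif20a and Arsi, 0.0114 for Piezo2, 0.012 for Cthrc1, 0.0129 for Cdc20 and 0.0141 for Wnt2. It was 0.0174 for both Cenpe and Birc5, 0.0347 for Pappa and 0.0379 for Pcna.

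The 3 arrays of dissected Ang II aortas did not enter the main fit. All 8 genes whose Ang II and saline arrays did not overlap lay above every saline array in these 3 as well. The saline arrays are the same ones by which the 8 were picked. How many of all genes lie so in the 3 dissected arrays was not counted, so the 8 have no share to be read against.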

How the results depend on the processing

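The number of arrays and the spread between them limit what can be called, and probes near background limit Kap, Vip, Mmp12, Gdf6, Adamts3, Il6 and Ren1. The count of 5584 genes became 3174 with median centring, 1872 in the mean of 14 and 28 days, 1729 within scan day 2 and 3411 with neighbouring tissue levels in the fit. It ran from 4929 to 6123 when 1 array was left out. The count of 105 genes that differed among times became 325 with the scanner software's log ratios and 325 with the deposited series table, 229 with median centring and 0 between 14 and 28 days alone. It became 201 without 28 days, 2873 with array weights, 3 with slide as a block, 1 within scan day 1, 36 within scan day 2, 0 with neighbouring tissue levels and 283 with normexp fitted on all spots, the last chosen after seeing the data. It ran from 15 to 308 when 1 array was left out. The cause was not tested. Whether equal replicate numbers pair the samples was not settled, and the main fit used no pairing. Of 14 pairs with equal numbers 7 had a correlation over 0.1 (range -0.427 to 0.603), and pairs with unequal numbers were not set beside them. With the replicate block 4960 genes were called on average and 0 among times.

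Of 148 called genes named here, 143 kept their call whichever array was left out, and 76 under every alternative. Among the genes named here, signs turned only for those that had not been called. Over all genes, 5048 of the 5054 called also in the mean of all probes kept their direction. Mmp9 was at -0.03 with the scanner's ratios and with the series table, -0.07 in the mean of 14 and 28 days, -0.28 within scan day 2, -0.15 with neighbouring tissue levels, -0.08 with normexp on all spots, and from -0.03 to 0.14 when 1 array was left out, below 0 without each of 3 Ang II arrays. Myh11 was at -0.06 with median centring and with array weights, -0.10 without 14 days, -0.07 within scan day 2 and -0.01 without saline replicate 2 of 14 days. Pcna was at -0.04 with median centring, -0.09 in the mean of 14 and 28 days, -0.05 without 28 days and -0.01 within scan day 1. In the mean of 14 and 28 days Ccl2 was at -0.03, Il1b at -0.12 and Agtr1a at 0.17. Within scan day 1 Acta2 was at 0.18, Tagln at 0.27 and Cnn1 at 0.31, and Cnn1 was at 0.15 without 28 days.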
